A study of Mus musculus with 12 samples.

Results

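The 6 genes described here detect, edit or answer double-stranded RNA and were followed in GT1-7 cells: Ddx58, Ifih1, Dhx58, Eif2ak2, Adar and Mavs. They were taken by gene name from the deposited expression tables, where all 6 were found among 12786 genes listed in at least 1 table, and all 6 passed the filter on low counts in every comparison. GT1-7 is an immortalised line of mouse hypothalamic neurons that secretes gonadotropin-releasing hormone. RNA was sequenced from 12 samples in 3 groups of 4. The Klf4 siRNA group received a short duplex RNA against Klf4, a zinc finger transcription factor. The Scramble group received a scrambled duplex, and both duplexes were delivered over 24 h with a cationic lipid (Lipofectamine) in Opti-MEM I. No transfection is described for the Vehicle group, whose cells were deprived of serum for 6 h, then kept for 1 h in DMEM lacking Ca2+. All cells were grown in DMEM with 10% fetal bovine serum. The labels do not say that the samples of a group came from separate cultures, so the p-values measure the spread between these samples, which may be technical.

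Cells recognise double-stranded RNA in the cytosol through RIG-I-like receptors, which are RNA helicases. RIG-I (Ddx58) prefers short duplexes with triphosphate or diphosphate ends, MDA5 (Ifih1) assembles along long duplexes, and LGP2 (Dhx58) lacks the signalling domains of the other two and adjusts their activity. Both signalling receptors act through MAVS, an adaptor on the mitochondrial membrane that leads to interferon induction, while the kinase PKR (Eif2ak2) halts translation when it binds duplex RNA and the enzyme ADAR1 (Adar) converts adenosine to inosine in duplexes and so hides the RNA of the cell itself from MDA5. Several of these genes are themselves induced by interferon, and an siRNA is itself a short duplex.

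The positions below are on mm10 in GENCODE M21. Ddx58 lies at chr4:40203773-40239828 on the minus strand, Ifih1 at chr2:62595798-62646255 on the minus strand and Dhx58 at chr11:100694884-100704271 on the minus strand. Eif2ak2 lies at chr17:78852564-78882573 on the minus strand, Adar at chr3:89715022-89753446 on the plus strand and Mavs at chr2:131234063-131248025 on the plus strand. A count covers the exons of a whole gene, so transcripts of 1 gene were not separated. For Adar, the 5 protein-coding transcripts begin at 2 start sites, positions 89715022 and 89730748.

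Promoter windows from RefSeq on GRCm38.p6 were available for 5 of the 6 genes, each running 250 bases before to 50 after an annotated start site. They are shown because interferon acts on its target genes through a short element, the interferon-stimulated response element. Capitals mark matches to its core, GAAA followed by NN and GAAA, or to the shorter half-site AANNGAAA that interferon regulatory factors bind. Both strands were searched, so TTTCGATTTC in the Ddx58 window is a match read on the opposite strand. The windows are chr4:40239776-40240075 (minus strand) for Ddx58, chr2:62646206-62646505 (minus) for Ifih1, chr17:78882523-78882822 (minus) for Eif2ak2, chr3:89730468-89730767 (plus) for the downstream start of Adar and chr2:131233813-131234112 (plus) for Mavs, which holds neither motif.
Ddx58: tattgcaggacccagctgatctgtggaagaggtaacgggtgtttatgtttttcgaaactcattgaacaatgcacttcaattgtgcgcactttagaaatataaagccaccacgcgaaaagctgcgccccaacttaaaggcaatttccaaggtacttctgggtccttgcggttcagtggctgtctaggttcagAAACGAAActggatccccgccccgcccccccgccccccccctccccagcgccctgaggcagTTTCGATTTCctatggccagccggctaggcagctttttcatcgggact
Ifih1: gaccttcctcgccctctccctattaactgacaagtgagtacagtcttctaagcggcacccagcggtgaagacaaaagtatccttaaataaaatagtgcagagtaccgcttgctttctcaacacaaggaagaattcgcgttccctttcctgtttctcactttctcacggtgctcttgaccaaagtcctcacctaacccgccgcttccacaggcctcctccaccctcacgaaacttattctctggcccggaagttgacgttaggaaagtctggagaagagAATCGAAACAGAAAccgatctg
Eif2ak2: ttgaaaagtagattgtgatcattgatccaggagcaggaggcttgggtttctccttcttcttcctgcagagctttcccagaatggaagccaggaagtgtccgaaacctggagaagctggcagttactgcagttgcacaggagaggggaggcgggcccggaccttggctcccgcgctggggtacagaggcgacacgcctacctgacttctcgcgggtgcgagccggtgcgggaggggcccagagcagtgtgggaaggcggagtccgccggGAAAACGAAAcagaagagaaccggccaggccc
Adar: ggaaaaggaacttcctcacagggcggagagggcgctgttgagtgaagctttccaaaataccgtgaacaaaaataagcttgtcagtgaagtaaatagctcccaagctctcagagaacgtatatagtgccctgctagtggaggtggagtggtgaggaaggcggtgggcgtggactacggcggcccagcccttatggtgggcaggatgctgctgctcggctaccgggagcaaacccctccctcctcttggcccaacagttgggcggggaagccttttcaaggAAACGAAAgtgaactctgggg
Mavs: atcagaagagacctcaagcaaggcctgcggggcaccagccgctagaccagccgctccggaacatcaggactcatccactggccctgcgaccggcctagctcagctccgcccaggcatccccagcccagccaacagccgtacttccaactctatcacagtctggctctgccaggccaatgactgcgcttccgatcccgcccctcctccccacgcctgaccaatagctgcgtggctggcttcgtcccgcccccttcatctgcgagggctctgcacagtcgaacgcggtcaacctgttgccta

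The core occurred once in each of the Ddx58, Ifih1 and Eif2ak2 windows, at bases 3 to 12, 33 to 42 and 19 to 28 after the start site. Positions are counted from the RefSeq start site of each window. For the downstream Adar window that site lies upstream of the GENCODE start at position 89730748. For the Ifih1 window it is the GENCODE start of a retained-intron transcript. The protein-coding transcripts of Ifih1 start downstream, at positions 62646211 and 62646153, so the Ifih1 core lies before both. The core was in 3.44% of the 32851 windows of the whole table. No core was found in the 3 Adar windows or in the Mavs window. The half-site, searched after the windows had been read, was in 23.9% of all windows. Ddx58 held 2 half-sites, of which 1 overlapped its core, and Ifih1 held 2, both overlapping its core. Eif2ak2 held 1 within its core, and Adar held 1 at bases 30 to 37 after the RefSeq start of its downstream window. A binding motif of STAT dimers, TTCNNNGAA, was found once in the Eif2ak2 window and once in the downstream Adar window, against 8.3% of all windows. The box GGGNGTG, a motif of KLF factors, was found once, against 29.2% of all windows. It lay 88 to 82 bases before the RefSeq start of the downstream Adar window. These are matches of letters and were not tested as binding sites.

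**Figure D1:**
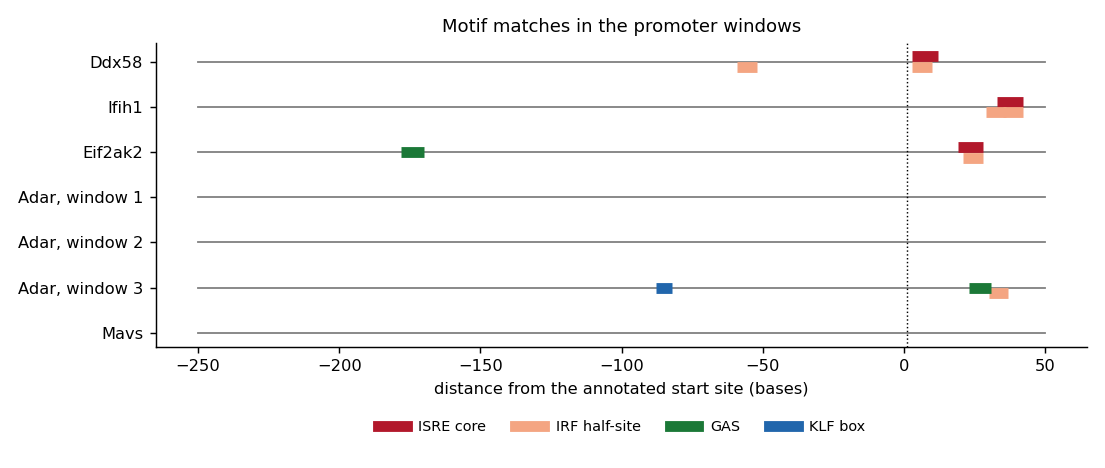
Motif matches in the promoter windows, by distance in bases from the annotated start site (dotted line at base 1), with 1 row per window and 3 windows for Adar. Red bars are the interferon response core, orange bars the half-site, green bars the STAT motif and blue the KLF box. The cores of Ddx58, Ifih1 and Eif2ak2 all lie within the 50 bases after the RefSeq start of their windows.

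Sequencing depth and the labels were checked first. Klf4 siRNA samples held 30041486 to 33481453 counts over all listed genes, Scramble samples 25992363 to 39674984 and Vehicle samples 28451562 to 35560442, and the members had between 398 and 3331 counts in a sample. Klf4 itself averaged 1.38 ± 0.36 CPM (counts scaled to library size) in Klf4 siRNA samples, 4.01 ± 0.61 CPM in Scramble samples and 4.78 ± 0.55 CPM in Vehicle samples (SD, n = 4 each), and was lower in each Klf4 siRNA sample than in any other sample. Of 14 microglia and macrophage markers, 3 are in the tables (Cd68, Csf1r and Tmem119), and their summed level was 37.6 to 42.7 CPM in Klf4 siRNA, 34.2 to 38.2 CPM in Scramble and 42.0 to 50.4 CPM in Vehicle samples. The sum is mostly Csf1r, at 30.4 ± 1.7 CPM in Klf4 siRNA, 26.7 ± 1.2 CPM in Scramble and 38.6 ± 3.3 CPM in Vehicle samples. Cd68 was low, at 2.78 ± 0.36 CPM in Klf4 siRNA, 0.846 ± 0.20 CPM in Scramble and 1.27 ± 0.26 CPM in Vehicle samples (SD, n = 4 each). Its group means were highest in Klf4 siRNA and lowest in Scramble, as were those of Dhx58 and Ifih1. The means of Ddx58, Eif2ak2, Adar and Mavs were lowest in Vehicle. For Klf4 siRNA over Scramble, Cd68 and Csf1r rose by 1.72 and 0.19 on the log2 scale and Tmem119 fell by 0.55 (edgeR adjusted p = 2.916e-05, 0.02891 and 0.000868). Of 17 markers of other glia, endothelium and fibroblasts, 8 are in the tables, summing to 115 to 133 CPM in Klf4 siRNA, 159 to 175 CPM in Scramble and 228 to 240 CPM in Vehicle samples. The part of either list in the results was not tested. Over the whole table Klf4 siRNA sample 1 stood apart from its group: chi-square per degree of freedom was 20 to 24.7 between it and the other 3, against 5.99 to 12.3 among those 3. Values up to 22.6 occurred between Vehicle samples. Klf4 siRNA samples 1 and 4 were also high in a gene model, Gm10800, with 25825 and 10572 counts, against 687 and 259 in Klf4 siRNA samples 2 and 3.

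All 6 genes were expressed in every group, including Vehicle. Compared per length as the deposited RPKM (reads scaled to gene length and library size), Mavs was the highest of the 6 in 12 of 12 samples and Ifih1 the lowest in 12 of 12. Mavs averaged 19.9 ± 1.7 RPKM in Klf4 siRNA, 18.7 ± 0.51 RPKM in Scramble and 17.8 ± 1.3 RPKM in Vehicle samples. Ifih1 averaged 2.87 ± 0.073 RPKM in Klf4 siRNA, 2.02 ± 0.13 RPKM in Scramble and 2.09 ± 0.30 RPKM in Vehicle samples. The sensor that begins the long-duplex route was thus the scarcest of these transcripts and the adaptor the most abundant.

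Between these ends, Dhx58 averaged 13.2 ± 0.71 RPKM in Klf4 siRNA, 7.60 ± 0.57 RPKM in Scramble and 11.2 ± 0.38 RPKM in Vehicle samples. Ddx58 averaged 12.8 ± 1.3 RPKM in Klf4 siRNA, 7.93 ± 0.55 RPKM in Scramble and 7.10 ± 0.31 RPKM in Vehicle samples. Their order changed with the group: Dhx58 was above Ddx58 in 3 of 4 Klf4 siRNA samples, 1 of 4 Scramble samples and 4 of 4 Vehicle samples, and in both siRNA groups the gap was within the spread. Adar averaged 9.14 ± 0.55 RPKM in Klf4 siRNA, 6.81 ± 0.14 RPKM in Scramble and 5.77 ± 0.44 RPKM in Vehicle samples. Eif2ak2 averaged 6.70 ± 0.87 RPKM in Klf4 siRNA, 5.53 ± 0.34 RPKM in Scramble and 3.94 ± 0.33 RPKM in Vehicle samples (SD, n = 4 each). No other neighbours in the order overlapped between the samples of a group.

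**Figure D2:**
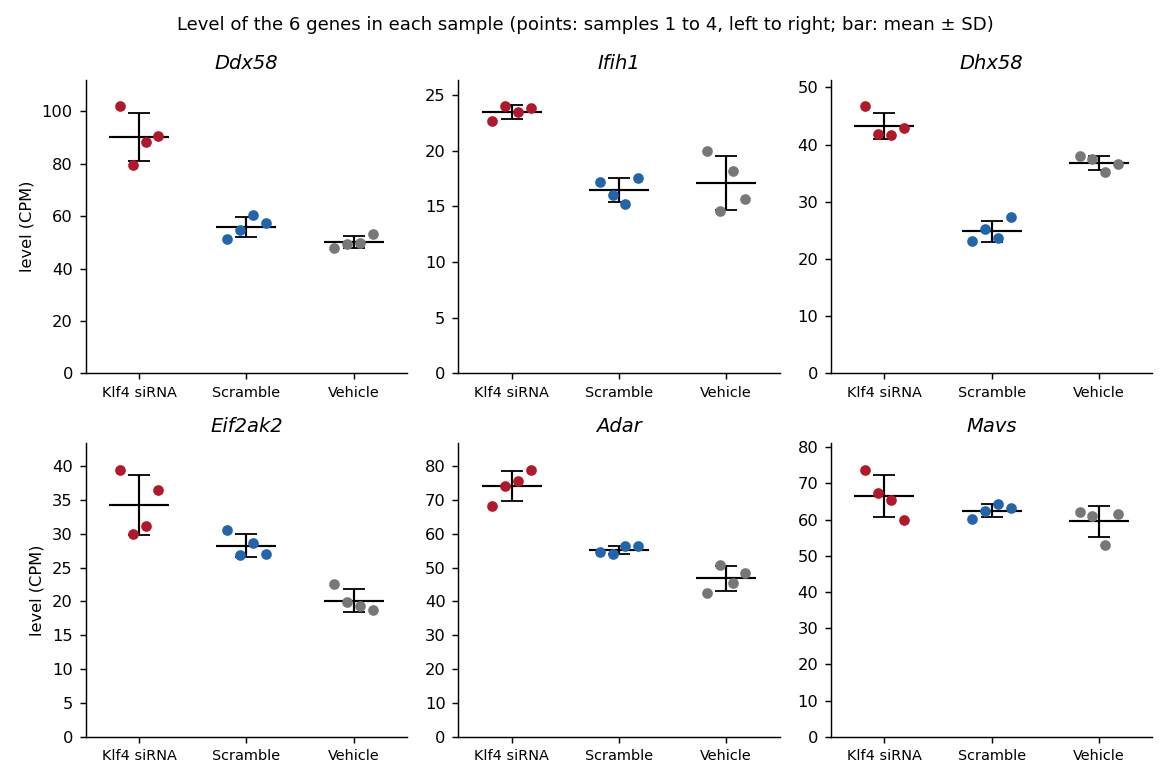
Level in CPM of each of the 6 genes in the 12 samples, with Klf4 siRNA left, Scramble in the middle and Vehicle right (points are samples 1 to 4 from left to right in each group, long bars means, short bars SD, every axis from 0). Ddx58, Ifih1, Dhx58 and Adar are higher in all 4 Klf4 siRNA samples than in any Scramble sample, Dhx58 is lowest in Scramble, and Mavs overlaps between all groups.

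The comparison of Klf4 siRNA with Scramble sets 2 transfected duplexes against each other and asks how these genes differ after a duplex against Klf4 and a scrambled one. In all, 5 of the 6 genes rose: the receptors Ddx58, Ifih1 and Dhx58, the kinase Eif2ak2 and the editor Adar, by 1.22 to 1.75-fold, while the adaptor Mavs was not called. A gene was called at an adjusted p under 0.05 in edgeR's quasi-likelihood test with Benjamini-Hochberg adjustment over all genes tested. The background is high, with 36% of 12663 genes called in either direction and 18.5% called up. The median log2 fold change was 0.47 over the 6 genes and -0.00018 over all genes tested. The samples of the 2 groups did not overlap for 4 of the 6 genes, all higher in Klf4 siRNA, against 34.7% of all genes tested in either direction and 18.4% higher. No member reached 2-fold, and 2.69% of all genes tested were called with a change of at least that size. A higher level per cell and more cells expressing a gene cannot be told apart in these bulk samples.

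Ddx58 had 102, 79.7, 88.3 and 90.7 CPM in Klf4 siRNA samples 1 to 4, against 51.3, 54.7, 60.5 and 57.2 CPM in Scramble samples 1 to 4. The groups did not overlap, and Klf4 siRNA sample 1 was the highest of the 12. The difference was 0.69 on the log2 scale (SE 0.07, 95% interval 0.54 to 0.85), or 1.62-fold, with an edgeR adjusted p of 1.129e-05.

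Ifih1 had 22.6, 24.0, 23.4 and 23.8 CPM in Klf4 siRNA samples, against 17.2, 16.0, 15.2 and 17.6 CPM in Scramble samples. The 4 Klf4 siRNA samples were close together and all above Scramble. The rise was 0.51 on the log2 scale (SE 0.07, 95% interval 0.36 to 0.67), or 1.43-fold, with an edgeR adjusted p of 0.0001142.

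Dhx58 had 46.7, 41.9, 41.6 and 42.9 CPM in Klf4 siRNA samples, against 23.1, 25.2, 23.7 and 27.3 CPM in Scramble samples. This regulator showed the widest separation of the 6, with every Klf4 siRNA sample above every Scramble sample. Its log2 fold change was 0.81 (SE 0.07, 95% interval 0.66 to 0.95), or 1.75-fold, with an edgeR adjusted p of 1.416e-06.

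Eif2ak2 had 39.4, 30.0, 31.2 and 36.4 CPM in Klf4 siRNA samples, against 30.6, 26.9, 28.6 and 27.0 CPM in Scramble samples. The groups overlapped, since Klf4 siRNA sample 2 lay below Scramble sample 1, and the high values were those of Klf4 siRNA samples 1 and 4. The kinase rose by 0.28 on the log2 scale (SE 0.09, 95% interval 0.09 to 0.47), or 1.22-fold, with an edgeR adjusted p of 0.02257. The call was lost without Klf4 siRNA sample 4 (log2 fold change 0.25, adjusted p = 0.06011), without Scramble sample 2 (0.26, adjusted p = 0.06583) and without Scramble sample 4 (0.26, adjusted p = 0.06058). Without Klf4 siRNA samples 1 and 4, the pair high in Gm10800, the edgeR log2 fold change was 0.12 with an adjusted p of 0.2278.

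Adar had 68.2, 74.2, 75.5 and 78.9 CPM in Klf4 siRNA samples, against 54.5, 54.1, 56.3 and 56.3 CPM in Scramble samples. The groups did not overlap, and within the Klf4 siRNA group sample 1 was the lowest, although it was the highest for Ddx58, Dhx58, Eif2ak2 and Mavs. Adar rose by 0.43 on the log2 scale (SE 0.05, 95% interval 0.32 to 0.54), or 1.35-fold, with an edgeR adjusted p of 4.485e-05.

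Mavs had 73.7, 67.4, 65.3 and 59.8 CPM in Klf4 siRNA samples, against 60.1, 62.3, 64.2 and 63.1 CPM in Scramble samples. The groups overlapped, with Klf4 siRNA sample 4 below every Scramble sample. The Mavs estimate was 0.10 on the log2 scale (SE 0.06, 95% interval -0.03 to 0.23) with an edgeR adjusted p of 0.2277. The interval leaves room for a rise of up to 0.23, below the estimates of the 5 called genes. It overlaps the 95% interval of Eif2ak2, which was 0.09 to 0.47.

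**Figure D3:**
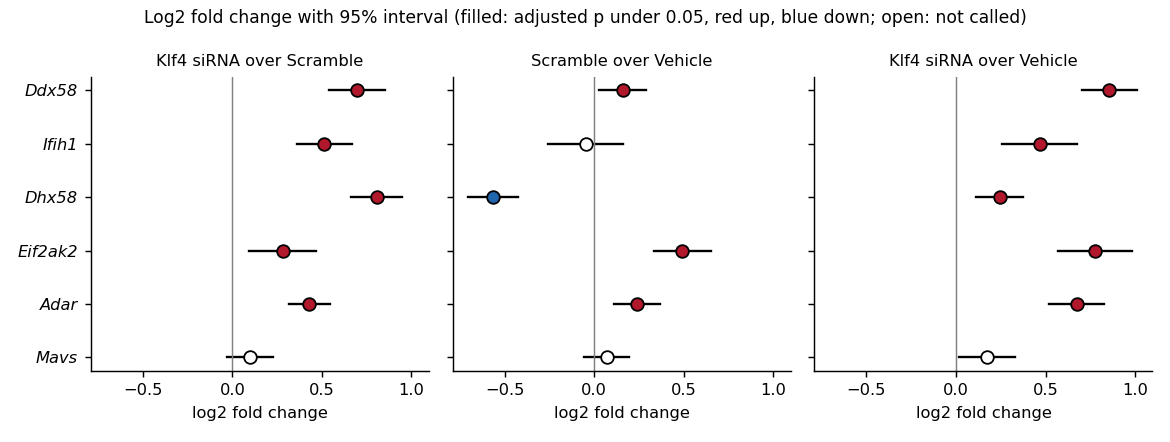
Log2 fold change of each gene in 3 comparisons, from left to right Klf4 siRNA over Scramble, Scramble over Vehicle and Klf4 siRNA over Vehicle, with horizontal lines for 95% intervals from 4 samples a group (filled points have an edgeR adjusted p under 0.05, red up and blue down, and open points do not). Dhx58 is the only gene of the 6 called down in any comparison, at -0.56 in Scramble over Vehicle, and the open points of Mavs lie at 0.10, 0.07 and 0.17.

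Adar carries a further limit. Its exons share 1365 bases with those of Chrnb2, the beta 2 subunit of nicotinic acetylcholine receptors, which lies on the opposite strand. The library kit does not mark strand, so reads from the shared stretch cannot be told apart. Chrnb2 had 640, 642, 712 and 647 counts in Klf4 siRNA samples, against 611, 551, 406 and 542 counts in Scramble samples and 368, 464, 359 and 487 counts in Vehicle samples. Its count was 26.6 to 28.7% of the Adar count in Klf4 siRNA samples, 27.3 to 29.8% in Scramble samples and 28.2 to 29.1% in Vehicle samples. Chrnb2 thus moved with Adar, by an edgeR log2 value of 0.40 (SE 0.07, adjusted p = 0.0006061) for Klf4 siRNA over Scramble, 0.21 (SE 0.08, adjusted p = 0.03192) for Scramble over Vehicle and 0.61 (SE 0.08, adjusted p = 6.576e-05) for Klf4 siRNA over Vehicle. With the Chrnb2 counts taken off the Adar counts, a step not planned beforehand, the Adar log2 fold changes were 0.44, 0.25 and 0.70. The edgeR adjusted p were 0.0001077, 0.004718 and 1.03e-05, in the same order of comparisons. Because Chrnb2 was a nearly constant share of Adar in every sample, this subtraction could change the fold changes only little. It therefore cannot show whether Adar rose apart from Chrnb2. How reads in the shared stretch were counted is not given, and which of the 2 genes they came from was not tested. Dhx58 shares 141 exonic bases with an antisense gene, Dhx58os, and Eif2ak2 shares 174 with a noncoding gene, Gm26637. Neither noncoding gene was analysed here.

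**Figure D4:**
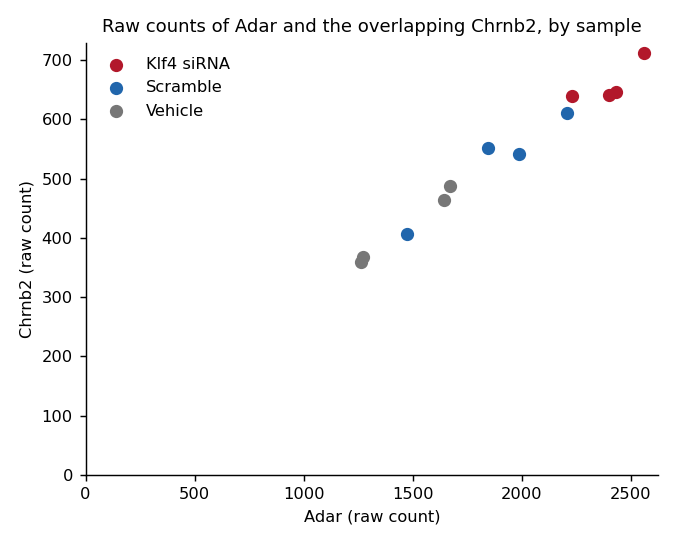
Raw counts of Chrnb2 (vertical) against raw counts of Adar (horizontal) in the 12 samples, coloured by group, both axes from 0. The points fall near a single line through the origin, with Chrnb2 at 26.6 to 29.8% of Adar in every sample.

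Other genes that bind or answer duplex RNA were read from the same fit. The counts stand beside 18.5% of all genes called up and 17.5% called down in this comparison. Of 28 such genes tested for Klf4 siRNA over Scramble, 13 rose and 1 fell, with a median log2 fold change of 0.12. The 4 with the smallest p encode or resemble the oligoadenylate synthetases, which bind duplex RNA. Oas1a averaged 21.4 ± 3.1 CPM in Klf4 siRNA samples and 5.47 ± 0.43 CPM in Scramble samples (SD, n = 4 each), or 1.98 higher on the log2 scale (SE 0.11, edgeR adjusted p = 6.58e-08). Oas3 rose by 2.88 (SE 0.18) and Oas2 by 2.56 (SE 0.23), with edgeR adjusted p of 1.34e-07 and 3.32e-06. Oasl2, a relative of the family, rose by 1.37 (SE 0.12) with an edgeR adjusted p of 2.18e-06. These synthetases have close paralogs, so their separate counts are uncertain, and Oas2 and Oas3 were low in Scramble samples, with 28 to 50 and 22 to 26 counts.

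The endosomal duplex sensor Tlr3 was not called, at 30.4 ± 2.5 CPM in Klf4 siRNA and 27.5 ± 1.3 CPM in Scramble samples, a difference of 0.15 on the log2 scale (SE 0.07, edgeR adjusted p = 0.105). Tlr3 and Dicer1 are named for their roles. Dicer1, the ribonuclease that cuts duplexes into small RNAs, was the gene of this list that fell, by 0.22 on the log2 scale (SE 0.08, edgeR adjusted p = 0.0415).

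The steps on either side of the sensors gave other counts, beside the same 18.5% of all genes called up and 17.5% called down. Among 30 regulators of RIG-I-like receptors, 4 rose and 2 fell, with a median of -0.03. The 4 with the smallest p were Anxa2, at -0.55 (SE 0.05, edgeR adjusted p = 2.66e-06), the kinase gene Riok3 at 0.35 (SE 0.04, adjusted p = 2.51e-05), the tripartite-motif gene Trim14 at 0.48 (SE 0.13, adjusted p = 0.00907) and Tax1bp1 at 0.14 (SE 0.04, adjusted p = 0.0176). Among 23 genes that relay the signal from MAVS, 4 rose and 0 fell, with a median of 0.05. The share that rose was near that over all genes. Irf7, the interferon-inducible transcription factor of the relay, averaged 47.2 ± 6.2 CPM in Klf4 siRNA and 15.6 ± 0.74 CPM in Scramble samples (SD, n = 4 each), which is 1.61 higher on the log2 scale (SE 0.09, edgeR adjusted p = 5.95e-08). The other 3 rose less: Nfkbia by 0.24, Ikbkg by 0.19 and Chuk by 0.18. The kinase Tbk1 and the factor Irf3, the constitutive core of this relay, had estimates of 0.03 (SE 0.06) and 0.02 (SE 0.05) on the log2 scale, with edgeR adjusted p of 0.69 and 0.777. Both are named for their roles. None of 15 interferon genes was among the genes tested in any comparison, so the ligands that link the sensors to their own induction could not be analysed here.

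Downstream of interferon, 11 of 17 genes of the receptors and the JAK-STAT relay rose and 2 fell, with a median of 0.38. Over all genes tested, 18.5% were called up and 17.5% down. Irf9, Usp18 and Ifngr2 rose by 1.07, 1.10 and 0.45 on the log2 scale. Jak1 was lower, at 767 ± 22 CPM in Klf4 siRNA and 889 ± 15 CPM in Scramble samples. The receptor gene Ifnar1 was also lower, at 179.5 ± 3.1 CPM in Klf4 siRNA and 194.5 ± 4.7 CPM in Scramble samples (SD, n = 4 each). Among 12 genes of DNA sensing, 4 rose and 1 fell, with a median of 0.05, and Ddx41, Samhd1, Ifi204 and Ifi203 rose by 0.44, 0.51, 0.59 and 0.84.

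The eIF2 list holds the arm on which PKR acts. Of 19 gene IDs tested, 10 rose and 2 fell, with a median of 0.13, against 18.5% of all genes called up and 17.5% down. Ppp1r15a, which encodes a phosphatase subunit that reverses the phosphorylation set by PKR, averaged 91.9 ± 2.0 CPM in Klf4 siRNA and 51.2 ± 2.2 CPM in Scramble samples (SD, n = 4 each), which is 0.85 higher on the log2 scale (SE 0.05, edgeR adjusted p = 6.52e-08). Ddit3, a stress-induced transcription factor gene listed under 2 gene IDs, rose by 0.94 and 1.01, and Eif2b5 rose by 0.29. Dnajc3, whose product inhibits PKR and the related kinase PERK, fell by 0.26 (SE 0.04, edgeR adjusted p = 0.000381). The other 3 kinases of eIF2, Eif2ak1, Eif2ak3 and Eif2ak4, had log2 fold changes of -0.08, -0.04 and 0.05, none of them called. Of 10 genes tied to ADAR or its mutant phenotype, 4 rose and 1 fell, with a median of 0.06. Samd9l rose by 0.94 and Zbp1, a sensor of Z-form nucleic acid, by 1.80, while Skiv2l, of the RNA-unwinding Ski complex, fell by 0.14. Zbp1 had 10 to 19 counts in Scramble samples. Zbp1 and Adarb1 stand in both this list and the list of other sensors, and Tarbp2 and Prkra stand in the eIF2 list and that list.

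**Figure D5:**
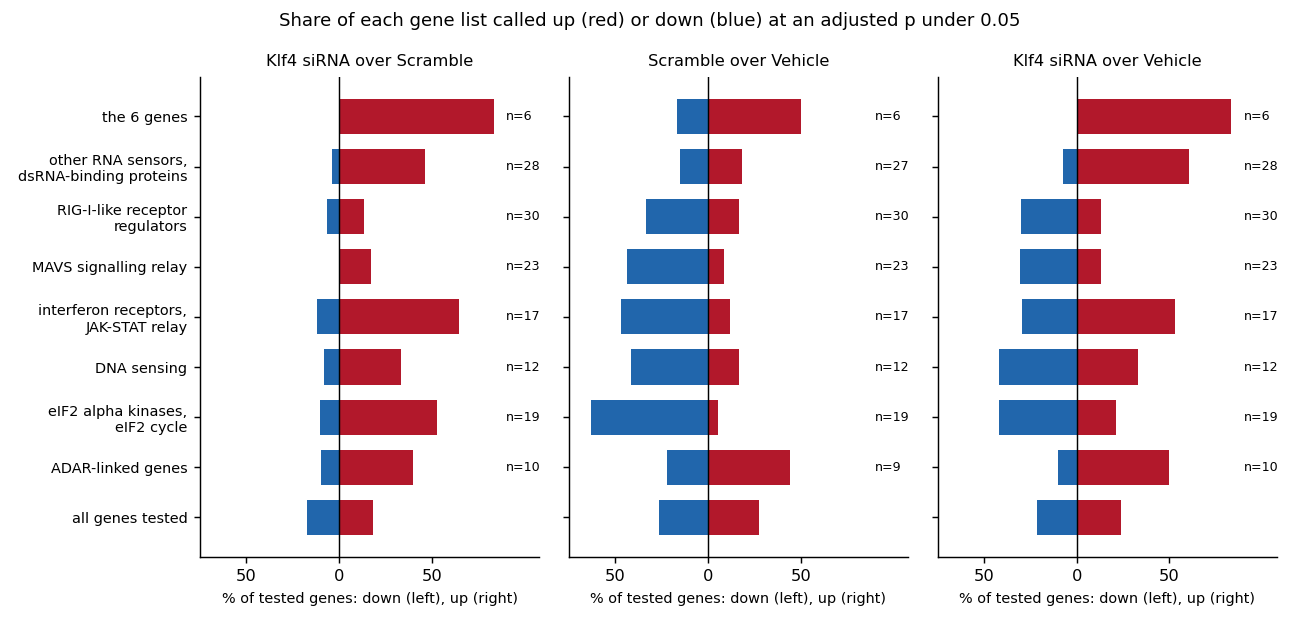
Share of each gene list called up (red, right of 0) or down (blue, left of 0) in percent of the genes tested, for Klf4 siRNA over Scramble, Scramble over Vehicle and Klf4 siRNA over Vehicle, with n the number of genes tested and all genes tested in the bottom row. For Klf4 siRNA over Scramble 5 of 6 members are up, and for Scramble over Vehicle 12 of 19 gene IDs of the eIF2 list are down.

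The comparison of Scramble with Vehicle sets cells given a scrambled duplex against cells for which none is described. It bears on whether a duplex as such moves the sensors, but duplex, lipid, medium, serum and Ca2+ changed together and cannot be told apart. The members split: Eif2ak2, Adar and Ddx58 rose, Dhx58 fell, and Ifih1 and Mavs were not called. In this comparison 53.9% of 12633 genes were called, 27.3% up and 26.6% down, so 4 of 6 members called is near the background. The groups did not overlap for 3 members, 2 of them higher in Scramble, against 48.4% of all genes tested in either direction and 24.6% higher. The median log2 fold change was 0.11 over the 6 genes and 0.01 over all genes tested. No member reached 2-fold, and 5.08% of all genes tested were called with a change of at least that size.

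Eif2ak2 had the values given above in Scramble samples, all between 26.9 and 30.6 CPM, against 22.5, 19.95, 19.3 and 18.8 CPM in Vehicle samples 1 to 4. The groups did not overlap. The kinase rose by 0.49 on the log2 scale (SE 0.07, 95% interval 0.33 to 0.65), or 1.41-fold, with an edgeR adjusted p of 8.818e-05. Of the 6 genes, this was the widest rise in Scramble over Vehicle.

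Adar lay between 54.1 and 56.3 CPM in Scramble samples, against 42.6, 50.9, 45.3 and 48.4 CPM in Vehicle samples. The groups did not overlap, and Vehicle samples were the more spread. The log2 fold change was 0.24 (SE 0.06, 95% interval 0.11 to 0.37), or 1.18-fold, with an edgeR adjusted p of 0.003859.

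Ddx58 lay between 51.3 and 60.5 CPM in Scramble samples, against 48.0, 49.3, 49.9 and 53.1 CPM in Vehicle samples. The groups overlapped, with Scramble sample 1 below Vehicle sample 4. The log2 fold change was 0.16 (SE 0.06, 95% interval 0.03 to 0.29), or 1.12-fold, with an edgeR adjusted p of 0.03847. The call was lost without Scramble sample 3 (adjusted p = 0.09434), Scramble sample 4 (0.06858), Vehicle sample 1 (0.08348), Vehicle sample 2 (0.06571) or Vehicle sample 3 (0.06689), with edgeR log2 fold changes of 0.13 to 0.16, and in a fit of all 12 samples (adjusted p = 0.0691).

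Dhx58 lay between 23.1 and 27.3 CPM in Scramble samples, against 38.0, 37.4, 35.2 and 36.5 CPM in Vehicle samples. Every Scramble sample was below every Vehicle sample. LGP2 mRNA fell by 0.56 on the log2 scale (SE 0.06, 95% interval -0.70 to -0.43), to 0.676 of the Vehicle level, with an edgeR adjusted p of 7.938e-06.

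Ifih1 lay between 15.2 and 17.6 CPM in Scramble samples, against 19.97, 14.6, 18.2 and 15.7 CPM in Vehicle samples. Vehicle samples spread widely and enclosed the Scramble samples. The log2 fold change was -0.05 (SE 0.10, 95% interval -0.26 to 0.16) with an edgeR adjusted p of 0.7038, and without Vehicle sample 1 it was 0.036. Mavs lay between 60.1 and 64.2 CPM in Scramble samples, against 62.2, 61.1, 53.0 and 61.6 CPM in Vehicle samples, a difference of 0.07 on the log2 scale (SE 0.06, 95% interval -0.06 to 0.20, edgeR adjusted p = 0.3256). The intervals of both genes include 0.

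The lists around the sensors are given by their counts, beside the 27.3% of all genes called up and 26.6% called down. Of 27 other RNA sensors and duplex-binding proteins, 5 rose and 4 fell. Adarb1, the editing paralog of Adar, rose by 0.64 (SE 0.11, edgeR adjusted p = 0.000195) and Dhx9 by 0.30, while Oas1a fell by 0.52 (SE 0.13, edgeR adjusted p = 0.00494). Of 30 receptor regulators 5 rose and 10 fell, and Atg12, Cyld, Tax1bp1 and Ppp1ca fell by 0.62, 0.62, 0.24 and 0.22. Of 23 genes of the MAVS relay 2 rose and 10 fell, and Nfkbia, Ikbkg, Ripk1 and Rela fell by 0.75, 0.41, 0.40 and 0.57. Tbk1 fell by 0.37 (SE 0.05, edgeR adjusted p = 2.21e-05).

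Of 17 genes of the interferon receptors and JAK-STAT relay, 2 rose and 8 fell, and Irf1, Socs3, Irf9 and Socs1 fell by 0.98, 3.03, 0.59 and 0.83. The eIF2 list had 1 rise and 12 falls among 19 gene IDs, with a median of -0.15. Ppp1r15a averaged 51.2 ± 2.2 CPM in Scramble and 220.6 ± 6.7 CPM in Vehicle samples (SD, n = 4 each), a difference of -2.11 on the log2 scale (SE 0.05, edgeR adjusted p = 1.85e-12), and Ddit3, Atf4 and Eif2ak3 fell with it. Eif2ak2 thus rose while its sister kinase gene Eif2ak3, which encodes PERK, fell by 0.64 (SE 0.05, edgeR adjusted p = 2.62e-07). DNA sensing had 2 rises and 5 falls among 12 genes. The ADAR-linked list had 4 rises and 2 falls among 9 genes, with a median of 0.17.

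Klf4 siRNA over Vehicle shares its Klf4 siRNA samples with the first comparison and its Vehicle samples with the second, so its values are given beside them and are no further evidence. Of the 6 members, 5 rose and Mavs was not called. In all 5 the 4 Klf4 siRNA samples lay above the 4 Vehicle samples, against 41.2% of all genes without overlap and 21.6% higher without it. The background was 45.4% of 12684 genes called, 24.1% up and 21.3% down, with 5.27% called and changed at least 2-fold, a size no member reached, and the median log2 fold change was 0.57 over the members and 0.02 over all genes. Ddx58 rose by 0.86 (SE 0.07, 1.81-fold, edgeR adjusted p = 9.904e-07), the widest of the 6. Eif2ak2 rose by 0.78 (SE 0.10, 1.71-fold, edgeR adjusted p = 2.899e-05) and Adar by 0.67 (SE 0.07, 1.60-fold, edgeR adjusted p = 7.473e-06).

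Ifih1 rose by 0.47 (SE 0.10, 1.38-fold, edgeR adjusted p = 0.001677). Dhx58 rose by 0.24 (SE 0.06, 1.18-fold, edgeR adjusted p = 0.004983), the smallest of the called changes. Without Klf4 siRNA samples 1 and 4 the Dhx58 value was 0.18 with an edgeR adjusted p of 0.0514. The Mavs estimate was 0.17 on the log2 scale (SE 0.07, 95% interval 0.01 to 0.33, edgeR adjusted p = 0.07072), and it was called without Klf4 siRNA sample 4, at 0.21 (edgeR adjusted p = 0.03383), and with upper-quartile scaling, at 0.19 (edgeR adjusted p = 0.04969).

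In the lists of the same comparison, 17 of 28 other RNA sensors and duplex binders rose and 2 fell, with a median of 0.28. The counts here stand beside 24.1% of all genes called up and 21.3% called down. Ifit1 rose by 1.51, the helicase gene Ddx60 by 1.51, Oasl2 by 1.36 and Oas2 by 2.86. The regulators had 4 rises and 9 falls among 30 genes, led by falls of Atg12, Cyld and Anxa2 (0.67, 0.65 and 0.41) and a rise of Trim14 (0.77). The MAVS relay had 3 rises and 7 falls among 23 genes, where Irf7 rose by 1.29 and Nfkbia, Ripk1 and Rela fell by 0.51, 0.40 and 0.55. The interferon receptor and JAK-STAT list had 9 rises and 5 falls among 17 genes, where Stat2 rose by 1.14 and Irf1 and Socs3 fell by 0.90 and 2.47. The eIF2 list had 4 rises and 8 falls among 19 gene IDs, DNA sensing 4 rises and 5 falls among 12 genes, and the ADAR-linked list 5 rises and 1 fall among 10 genes.

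The 6 genes did not share 1 pattern over the 12 samples. Their log2 CPM, centred on the mean of each gene, was compared by the root-mean-square difference over samples, where 0 means the same pattern. The closest members were Ddx58 and Adar, at 0.163, and the farthest were Dhx58 and Eif2ak2, at 0.449. The standard deviation over the 12 samples was 0.39 for Ddx58, 0.36 for Dhx58, 0.35 for Eif2ak2, 0.30 for Adar, 0.27 for Ifih1 and 0.11 for Mavs. Dhx58 was high in Klf4 siRNA, low in Scramble and between them in Vehicle, whereas Eif2ak2 and Adar were high in Klf4 siRNA, between in Scramble and low in Vehicle. Ddx58 and Ifih1 were high in Klf4 siRNA and lower in both other groups, which differed by 0.16 and -0.05 (Scramble over Vehicle).

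Among 10543 other genes, those most like each member were found by the same measure. For Ddx58 they included Trim30d at 0.093 and Trim30a at 0.0987. For Ifih1 they were Tmem126a at 0.0801, Tpd52 at 0.104 and Atp6v1d at 0.105. For Dhx58 they were Mfsd1 at 0.0722, Bex1 at 0.0844 and the lysosomal protease gene Ctsd at 0.0844. The Eif2ak2 pattern was closest to Ankrd23 at 0.0999, Zfp442 at 0.101 and Herc6 at 0.107, and that of Adar to the overlapping Chrnb2 at 0.0483, Nfkb2 at 0.0596 and Ei24 at 0.0634. Mavs, which varied least, was closest to Slc35a2 at 0.0427, Rbm17 at 0.0483 and Nubp1 at 0.0494. These patterns rest on the same 12 samples in 3 groups.

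The receptors, kinase and editor were also set against their adaptor within each sample, as the log2 ratio of RPKM to that of Mavs, a measure added after the data were seen that needs no scaling between libraries. Each ratio was compared by a two-sided exact permutation test over the 70 divisions of 8 samples, where the smallest possible p is 0.0286, with Benjamini-Hochberg adjustment over 15 tests. All 15 share the Mavs values and are not independent. Whether a ratio at the smallest p passes after adjustment depends on how many others reach it. For Klf4 siRNA over Scramble, 4 of 5 ratios were higher without overlap: Dhx58 by 0.71, Ddx58 by 0.60, Ifih1 by 0.42 and Adar by 0.33, each at the smallest p and at 0.0429 after adjustment. The Eif2ak2 ratio differed by 0.18 (exact p = 0.2, adjusted 0.25). For Scramble over Vehicle the ratio of Dhx58 was lower, by -0.64, and those of Eif2ak2 and Adar higher, by 0.42 and 0.17, at the same exact p and adjusted p. The ratios of Ddx58 and Ifih1 differed by 0.09 and -0.12, and neither passed. For Klf4 siRNA over Vehicle the ratios of Ddx58, Eif2ak2 and Adar were higher, by 0.68, 0.60 and 0.50, while those of Ifih1, at 0.31, and Dhx58, at 0.07, did not pass the adjusted threshold (exact permutation, adjusted p = 0.1559 and 0.3368).

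In the authors' deposited table for each comparison, 5, 4 and 5 of the 6 genes had an FDR under 0.05 for Klf4 siRNA over Scramble, Scramble over Vehicle and Klf4 siRNA over Vehicle. The authors' deposited tables mark 0 of them as changed, because their marks also ask for a log2 fold change of 1 or more in size.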

How the data were processed

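The authors deposited a table for each pair of groups with raw counts of reads per gene and sample, per the file headers. The tables also hold RPKM values made by the authors, used here for levels between genes and ratios within samples. Their p-values, FDR values, log2 fold changes and a score marking calls are the authors' deposited statistics. Per the submitters' processing notes, STAR, STAR-Fusion, Subread, FastQC and edgeR were used with mm10, with no roles or versions given. The treatment of reads with several matches is stated by none of these sources.

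Counts were tested over each whole table by the quasi-likelihood test of edgeR 4.0.16 under R 4.3.3 (TMM scaling, default filter on low counts, Benjamini-Hochberg adjustment over all genes tested), using only the 8 samples of the comparison and no block. The script was tested on simulated data. The standard error is the log2 fold change divided by the square root of F, and CPM values are scaled by TMM over 12 samples. Samples were grouped by their titles. Alternatives were DESeq2 1.42.0, limma 3.58.1 (voom), other scalings and filters, 1 fit of all samples, a replicate block and leaving samples out.

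The members, lists and tests were chosen with earlier results of these data known. The rule named the 6 genes, up to 4 called genes with the smallest p per list, and the 3 genes most like each member at a mean log2 CPM not under 2, leaving out gene models and pseudogenes. Other named genes were chosen for their role or direction after values were seen. Some genes that the rule names are not reported here.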

Additional observations from a re-analysis of the deposited data

Results flagged for a closer look

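Mavs in Vehicle sample 3 stood apart from the other Vehicle samples, at 53.0 CPM. Its gap to the nearest Vehicle sample was 0.879 of the range of the group. This is above the 95% critical value of Dixon's test for 4 samples. There were 18 sets of 4 samples examined, 6 genes in 3 groups, and chance picks out about 1 in 20. Without this sample the edgeR log2 fold change of Mavs for Scramble over Vehicle was 0.02, the lowest over the samples left out, and Mavs was not called in either case.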

How the results depend on the processing

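Over the alternatives, 286 of the members' log2 fold changes kept their direction and side of the threshold, 11 lost their call, 2 gained one and 1 changed sign. Of the counts of called genes and members, 100 stayed within 1.5 times and 6 did not. The sign change was Ifih1 in Scramble over Vehicle without Vehicle sample 1, at 0.036 (edgeR adjusted p = 0.7605), a gene not called in either case, whose value lay between -0.12 and 0.036 as samples were left out. The calls lost were those of Eif2ak2, Ddx58 and Dhx58 named beside their results, and the 2 gained were Mavs in Klf4 siRNA over Vehicle. The 6 counts outside that range came from asking also for at least a 2-fold change, which left 341, 642 and 668 genes called for Klf4 siRNA over Scramble, Scramble over Vehicle and Klf4 siRNA over Vehicle, and 0 members in each. Leaving out 1 sample at a time gave 3531 to 4634, 6085 to 6755 and 4899 to 5654 genes called, with 4 to 5, 3 to 4 and 5 to 6 members. Samples with the same number did not deviate together in every pair (correlations of -0.32 to 0.155, -0.341 to -0.034 and -0.053 to 0.302), so the numbers were not taken as pairs. With a replicate block 3880, 6143 and 5968 genes and 5, 4 and 5 members were called. Ratios to Mavs did not pass the exact test in 4 cases that edgeR called. These were Eif2ak2 in Klf4 siRNA over Scramble, Ddx58 in Scramble over Vehicle, and Ifih1 and Dhx58 in Klf4 siRNA over Vehicle. The exact test has less reach than edgeR, and a ratio also takes off the change of Mavs, so another quantity was tested. In that order the ratios differed by 0.18, 0.09, 0.31 and 0.07, against edgeR log2 fold changes of 0.28, 0.16, 0.47 and 0.24. The 95% intervals of the members were 0.23 to 0.42 wide on the log2 scale with 4 samples a group, which limits what can be resolved, and the cause of each change was not tested.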
